A study of Homo sapiens with 2 samples.

Results

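The 43 interferon-stimulated genes described here are genes that type I or type II interferon is known to induce, and they were chosen by name from the protein-coding rows of the deposited expression table. All 43 names were found, among 19951 protein-coding genes and 58735 rows in all. The study reduced FKBP9, a peptidyl-prolyl isomerase of the endoplasmic reticulum, in glioblastoma cells and sequenced RNA to ask which genes then differ. RNA was read from SF-539 cells, a human glioblastoma cell line that the labels call epithelial glioma cells, at passages 15 to 18 in DMEM with serum. One culture, shControl, carried the control lentivirus pGIPZ-CTRL, and the other, shFKBP9, carried a lentivirus with an shRNA against FKBP9. Both therefore share infection with a lentivirus and puromycin selection of stable clones, and no uninfected or interferon-treated library was analysed here. Which of the FKBP9 shRNAs made the shFKBP9 culture is not given in the sources used here.

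Interferons are secreted when a cell senses viral nucleic acid through receptors such as RIG-I (gene DDX58), MDA5 (IFIH1) or cGAS. Type I interferon binds IFNAR1 and IFNAR2, the kinases JAK1 and TYK2 phosphorylate STAT proteins, and these join IRF9 in a complex that binds the interferon-stimulated response element in the promoters of many genes. The products block viral entry, translation and replication, tag proteins with ISG15, or feed back on the pathway. Many tumor lines keep part of this program on without added interferon.

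The table holds 1 library per condition, so there is no replicate check, and each ratio below compares these libraries and not the conditions. Values are FPKM, fragments per kilobase of gene length scaled to the library size. Fragment numbers could be recovered for every row, and they summed to 18116873 in shControl and 17158514 in shFKBP9, so that 1 fragment on a gene of 1 kb is worth 0.0552 and 0.0582 FPKM. Ratios are log2 of shFKBP9 over shControl with 0.1 FPKM added to both, and the range after each is the exact Clopper-Pearson 95% interval of the fragment ratio with nothing added, which covers counting error only and not the spread between cultures. FKBP9 itself (ENSG00000122642, chromosome 7, 32957404 to 33006931, hg38) was at 49.8 FPKM in shControl and 4.68 FPKM in shFKBP9, a log2 ratio of -3.38 (-3.56 to -3.27), in the direction that the labels give.

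The mesenchymal markers VIM (277 and 295 FPKM) and CD44 (48.6 and 55.6 FPKM) were abundant in shControl and shFKBP9, whereas the astrocyte genes GFAP (43 and 29 fragments) and S100B (0 and 1 fragment) were near or at 0. Of the other glial and glioma markers, NES was at 2.36 and 2.17 FPKM, OLIG2 at 0.791 and 0.712 FPKM, and SOX2 had 4 and 7 fragments. Of 5 epithelial genes, CDH1 (0 and 1 fragment), EPCAM (11 and 14), KRT18 (9 and 5) and KRT19 (4 and 2) were near 0, and KRT8 was at 1.28 and 1.09 FPKM, so most markers of the labelled epithelial type were near absent. Leukocytes and plasmacytoid dendritic cells are strong sources of interferon and of its target genes. Of 8 leukocyte markers, PTPRC and CD3E were at 0 in both libraries and the list summed to 56 and 66 fragments. Its highest members were NKG7, at 1.48 and 1.68 FPKM, and CD14, with 13 and 24 fragments. Of 4 endothelial markers, PECAM1, VWF and CDH5 had at most 12 fragments in a library, and KDR was at 2.83 and 2.45 FPKM. The plasmacytoid markers CLEC4C and LILRA4 were at 0 too, with IL3RA at 67 and 50 fragments. In RNA of a whole culture, fewer cells that express a gene and less RNA per cell cannot be told apart.

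Letters of the response element were found in the promoters of most of the interferon-stimulated genes for which a sequence was at hand. RefSeq promoter windows (GRCh38.p14, from 250 bases before to 50 bases after a transcript start) were matched for 34 of 43 genes, with DDX58 found under its current symbol RIGI. No window was matched for OAS2, MX2, IFITM2, USP18, OASL, IRF7, IFIT2, TRIM22 and GBP2. The letters GAAANNGAAA, the core of the element, were searched on both strands, where they read TTTCNNTTTC on the other, and overlapping matches were counted together. They were present for 23 of 34 genes (67.6%), against 1195 of 27305 genes in the whole set of windows (4.38%). Stretches of 50 bases are shown for genes whose values are described next, written 5′ to 3′ on the gene's own strand with the matching letters in capitals:
ISG15, chr1:1013364-1013413, plus strand: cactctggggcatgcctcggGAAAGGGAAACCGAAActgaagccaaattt
IFIT1, chr10:89392487-89392536, plus strand: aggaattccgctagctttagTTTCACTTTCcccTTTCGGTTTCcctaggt
OAS3, chr12:112938311-112938360, plus strand: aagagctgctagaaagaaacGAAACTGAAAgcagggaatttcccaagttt
GBP1, chr1:89065306-89065355, minus strand: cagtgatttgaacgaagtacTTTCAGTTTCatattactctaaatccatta
HERC5, chr4:88456974-88457023, plus strand: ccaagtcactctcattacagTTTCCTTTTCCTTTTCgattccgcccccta
IFI6, chr1:27672319-27672368, minus strand: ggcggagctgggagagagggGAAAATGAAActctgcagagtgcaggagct
PARP9, chr3:122564312-122564361, minus strand: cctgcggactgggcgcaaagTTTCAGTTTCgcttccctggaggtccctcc

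ISG15, IFIT1 and HERC5 each hold 2 overlapping or closely spaced copies in the stretch shown. The PARP9 stretch serves a pair of genes: the same bases, read on the plus strand, are the match in the window of DTX3L, which is transcribed the other way. Of the genes that collected 10 or more fragments over both libraries, 22 had the motif and 11 of them were higher and 11 lower in shFKBP9, with a median log2 ratio of 0.05. Of the 9 matched genes without it, 3 were higher and 6 lower, with a median of -0.02. The letters mark a sequence and not a measured binding site.

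Levels ranged from 0 fragments to over 50 FPKM. Of the 43 interferon-stimulated genes, 29 reached 1 FPKM in at least one library, which is 67.4% against 51.9% of all protein-coding genes, and 26 did so in both. The median over the 43 was 2.71 FPKM in shControl and 3.33 FPKM in shFKBP9. A few genes carried much of the signal, and IFITM3, IFI6 and UBE2L6 together held 48.8% and 46.5% of the summed level. Only 7 genes stood at 10 FPKM or more in each library, and these were IFITM3, IFI6, UBE2L6, ISG15, STAT2, IFI35 and IFITM2. At the other end, 14 genes stayed under 1 FPKM in both, among them IFIH1, IRF9, IFIT2, OAS1, OAS2, MX1, MX2, BST2 and IFI44L. RSAD2, which encodes the antiviral enzyme viperin, had 0 fragments in both, and a floor of 3 fragments then allows a level of up to 0.0343 FPKM (shControl) or 0.0361 FPKM (shFKBP9). CMPK2, its neighbor, had 0 and 1 fragment, and XAF1, a proapoptotic gene, had 1 and 5.

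**Figure D1:**
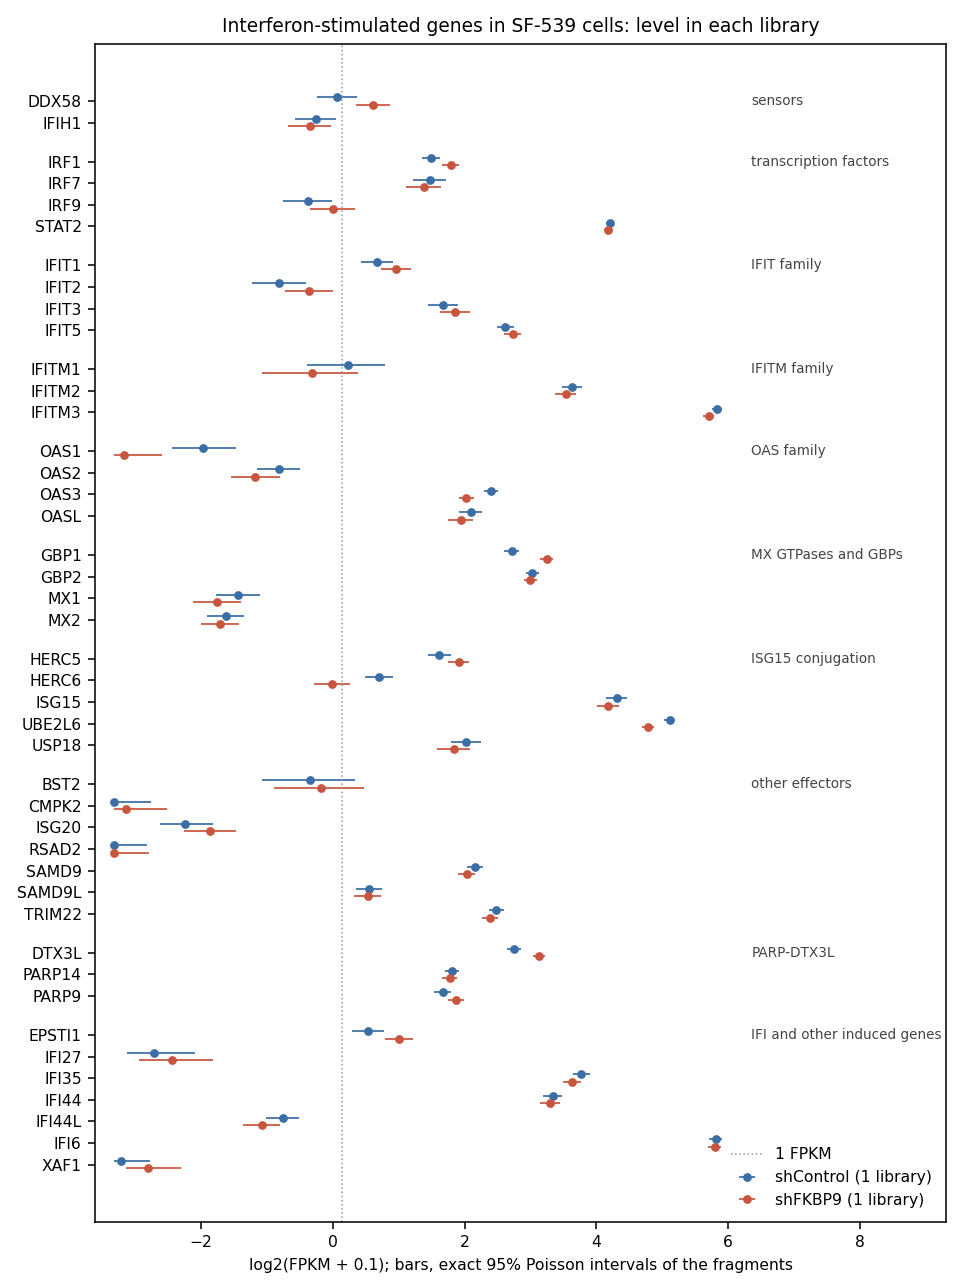
FPKM of the interferon-stimulated genes in the shControl and shFKBP9 libraries, 1 library each, grouped by role, as log2 of FPKM plus 0.1, with bars for the exact 95% Poisson interval of the fragments and a dotted line at 1 FPKM. IFITM3 and IFI6 lie above 50 FPKM in both libraries, RSAD2 has no fragment, and the points of the same gene lie close together for nearly all genes.

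No interferon-stimulated gene that reached 1 FPKM differed by 2-fold between the libraries. Of these 29, 0 were past 2-fold, beside 42 of 10346 protein-coding genes (0.406%). Below that level, OAS1, with 14 and 1 fragments, was past 2-fold lower at a log2 ratio of -1.20, which becomes -0.19 with 1 FPKM added and -2.93 with 0.01 added. The median log2 ratio of the 29 was -0.03, beside -0.02 over the same 10346 genes. Summed over all 43, the fragments numbered 15356 in shControl and 14448 in shFKBP9, a log2 ratio of -0.01 (-0.04 to 0.02) after scaling by library size. Of the 40 genes with at least 10 fragments, 15 were higher and 25 lower in shFKBP9, so 37.5% were higher, beside 46.8% of 13040 protein-coding genes.

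Smaller differences went both ways. The counting interval lay above 0 for 7 of 40 genes (17.5%), which were DDX58, IRF1, GBP1, HERC5, DTX3L, PARP9 and EPSTI1, beside 16.7% of protein-coding genes. It lay below 0 for 5 of 40 (12.5%), which were IFITM3, UBE2L6, OAS1, OAS3 and HERC6, beside 20.3%. An interval of this kind is narrow for abundant genes and leaves out the spread between cultures, so a share near the background is not a result about these genes. A second description set each gene against the protein-coding genes of 1 of 3 wide classes of depth. The middle 95% of log2 ratios ran from -0.99 to 0.94 for genes with 10 to 99 fragments, from -0.55 to 0.52 for 100 to 999 and from -0.35 to 0.36 for 1000 or more. Of the 40 genes, 6 fell outside, namely DDX58, GBP1 and DTX3L above and OAS1, OAS3 and HERC6 below, which is 15.0% beside 5.02% of protein-coding genes. All 6 lie toward the shallow end of their class, where the spread is wider. Against the 500 protein-coding genes nearest in fragments, an alternative chosen after seeing the data, 3 of 40 fell outside (GBP1, DTX3L and HERC6), which is 7.5% beside 5.36%, and DDX58, OAS1 and OAS3 fell inside. No test stands behind these counts.

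**Figure D2:**
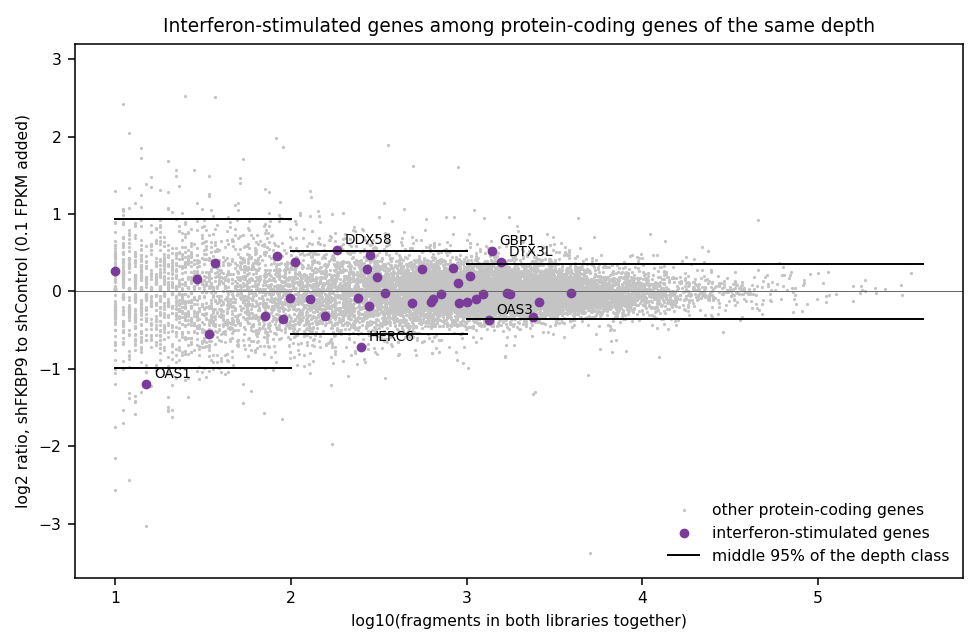
Log2 ratio of shFKBP9 over shControl against the log10 of the fragments in both libraries together, with protein-coding genes in grey and the interferon-stimulated genes in color. Black lines bound the middle 95% of protein-coding genes in each of the 3 classes of depth. The 6 genes named in the plot lie outside these lines, and the others lie inside.

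Among the sensors of viral RNA, DDX58 (ENSG00000107201, chromosome 9, 32455705 to 32526324) was at 0.952 FPKM in shControl and 1.43 FPKM in shFKBP9. With 75 and 107 fragments, its log2 ratio was 0.54 (0.15 to 1.03). Of its 100-base windows, 40.8% occur word for word in reference transcripts of another gene. No other row of the deposited table overlaps DDX58. Whether the annotation used for counting held that other gene is not known, so its effect on the level of DDX58 is uncertain. IFIH1, the sensor of longer double-stranded RNA, had 68 and 60 fragments and a ratio of -0.09 (-0.63 to 0.42), which holds 0. Summed, the sensors had 143 and 167 fragments and a ratio of 0.30 (-0.03 to 0.63).

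Of the transcription factors that drive the program, STAT2 was the most abundant, at 18.3 and 18.1 FPKM, with a log2 ratio of -0.02 (-0.11 to 0.07). IRF1 (chromosome 5, 132481609 to 132490798), which is induced by interferon gamma, was at 2.71 FPKM in shControl and 3.36 FPKM in shFKBP9, a ratio of 0.30 (0.11 to 0.51) from 383 and 450 fragments. IRF7, which amplifies type I interferon production, had 127 fragments in shControl and 113 in shFKBP9. IRF9, the DNA-binding partner of the STAT proteins, was at 0.670 and 0.906 FPKM, and its ratio of 0.39 (-0.14 to 1.02) rested on 46 and 59 fragments. IRF9 lies inside AL136295.5, a coding row of the same strand with 23 and 7 fragments, and 1596 of its 9361 windows recur in other genes, so how reads were assigned between these rows is uncertain. Windows that recur elsewhere made up 15.9% of those of IRF1, which also overlaps C5orf56 (43 and 54 fragments) and lies inside AC116366.3 (0 fragments in both) on the other strand. The intervals of IRF7 and IRF9 held 0, as did that of the sum over the 4 factors, 0.04 (-0.04 to 0.12).

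The 4 IFIT genes, whose products bind viral RNA and block its translation, were all higher in shFKBP9, none by an interval off 0. Of protein-coding genes with at least 10 fragments 46.8% were higher, and 4 genes are few to set beside that share. IFIT1 had 125 fragments in shControl and 147 in shFKBP9, a log2 ratio of 0.29 (-0.04 to 0.67). The ratio of IFIT2, at 0.471 and 0.682 FPKM, was 0.45 (-0.13 to 1.20). That of IFIT3, at 3.10 and 3.53 FPKM, was 0.18 (-0.14 to 0.52). IFIT5 was the most abundant of the family at 6.05 and 6.54 FPKM, a ratio of 0.11 (-0.08 to 0.31). Summed, the family had 748 and 806 fragments and a ratio of 0.18 (0.04 to 0.33). IFIT1, IFIT2 and IFIT3 lie within the span of LIPA on the other strand, which had 1984 and 1867 fragments. The kit does not mark strand, so strand does not separate their reads from those of LIPA.

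The 3 IFITM genes, which encode membrane proteins that restrict viral entry, were lower in shFKBP9, 1 of them by an interval below 0. Of protein-coding genes with at least 10 fragments, 53.2% were lower. IFITM3 (chromosome 11, 319669 to 327537) was the most abundant interferon-stimulated gene in shControl, at 57.0 FPKM, and was at 52.0 FPKM in shFKBP9, a log2 ratio of -0.13 (-0.24 to -0.02). IFITM2 was at 12.3 and 11.5 FPKM with a ratio of -0.10 (-0.33 to 0.13). IFITM1, at 1.07 and 0.701 FPKM, had 21 and 13 fragments and a ratio of -0.55 (-1.74 to 0.45). The genes are paralogs, and IFITM1 lies inside IFITM2 on the same strand. Of the 100-base windows, 20.3% of those of IFITM1, 6.81% of IFITM2 and 19.1% of IFITM3 recur in other genes, some beyond these 3. How reads were assigned to these genes is therefore uncertain. The sum was 1756 and 1521 fragments, a ratio of -0.13 (-0.23 to -0.03). It does not depend on how counted reads were split among the 3 genes. Reads dropped as ambiguous, or shared with further genes, can still alter it.

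All 4 genes of the OAS family were lower in shFKBP9, 2 of them by an interval below 0 and 2 by an interval that held 0. Of protein-coding genes with at least 10 fragments, 53.2% were lower. OAS1, OAS2 and OAS3 encode synthetases that sense double-stranded RNA and make the messenger that activates RNase L, and OASL encodes a relative without that activity. OAS3 (ENSG00000111331, chromosome 12, 112938352 to 112973249) was at 5.18 FPKM in shControl and 3.98 FPKM in shFKBP9. Its 774 and 564 fragments gave a log2 ratio of -0.37 (-0.54 to -0.22). OAS1 (chromosome 12, 112906777 to 112933222) had 14 fragments in shControl and 1 in shFKBP9, or 0.156 and 0.012 FPKM. Its ratio was -1.20 with 0.1 FPKM added, and the interval of the fragment ratio ran from -9.13 to -1.01. OAS2, the neighbor of OAS3 on the same chromosome, had 53 and 37 fragments and a ratio of -0.35 (-1.09 to 0.19). OASL was at 4.18 and 3.74 FPKM, a ratio of -0.15 (-0.42 to 0.10). The family summed to 1107 and 828 fragments, a ratio of -0.34 (-0.47 to -0.21), and OAS3 held most of these fragments.

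Of the large GTPases, GBP1 differed while its neighbor GBP2 did so by less than the counting error. GBP1 (ENSG00000117228, chromosome 1, 89052319 to 89065360), a guanylate-binding protein that attacks intracellular pathogens, was at 6.48 FPKM in shControl and 9.38 FPKM in shFKBP9. From 586 and 804 fragments its log2 ratio was 0.53 (0.38 to 0.69). GBP2, 40771 bases away, was at 8.07 and 7.89 FPKM, a ratio of -0.03 (-0.17 to 0.10), and these intervals do not overlap. MX1 and MX2, dynamin-like GTPases that trap viral nucleocapsids, were scarce, with 42 and 29 fragments for MX1 and 53 and 46 for MX2, and both intervals held 0. The sum over the 4 GTPases had a ratio of 0.19 (0.09 to 0.29), and GBP1 and GBP2 held nearly all of its fragments.

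ISG15 is a ubiquitin-like protein that UBE2L6 and a HERC ligase attach to other proteins and that USP18 removes. ISG15 was at 19.7 FPKM in shControl and 18.0 FPKM in shFKBP9, a log2 ratio of -0.13 (-0.37 to 0.10). UBE2L6 (chromosome 11, 57551656 to 57568284), the conjugating enzyme, was at 34.4 and 27.4 FPKM, and 1370 and 1033 fragments gave a ratio of -0.33 (-0.45 to -0.21). USP18, of whose windows 15.5% recur in other genes, was at 3.97 and 3.47 FPKM, a ratio of -0.19 (-0.54 to 0.16). The HERC genes, which lie 14005 bases apart on chromosome 4, went opposite ways. HERC5 (88457117 to 88506163), the main ligase for ISG15 in human cells, was at 2.97 FPKM in shControl and 3.67 FPKM in shFKBP9, a ratio of 0.30 (0.06 to 0.55). HERC6 (88378739 to 88443111), a related ligase, was at 1.53 and 0.895 FPKM, a ratio of -0.72 (-1.17 to -0.40) from 161 and 89 fragments. Their counting intervals do not overlap. With a spread between cultures assumed at a CV of 10% they still lay apart. At 20%, -0.53 to 1.14 (HERC5) and -1.66 to 0.10 (HERC6) overlap. HERC6 had the lowest ratio of the genes that reached 1 FPKM. Among other neighbors compared, the counting intervals of OAS1 and OAS3 and of GBP1 and GBP2 also lay apart. Those of PARP9 and DTX3L, IFI44 and IFI44L, and OAS2 and OAS3 overlapped. No share over other neighboring genes was worked out. The 5 genes summed to 2276 and 1839 fragments, a ratio of -0.23 (-0.32 to -0.14), and UBE2L6 held most of these fragments.

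**Figure D3:**
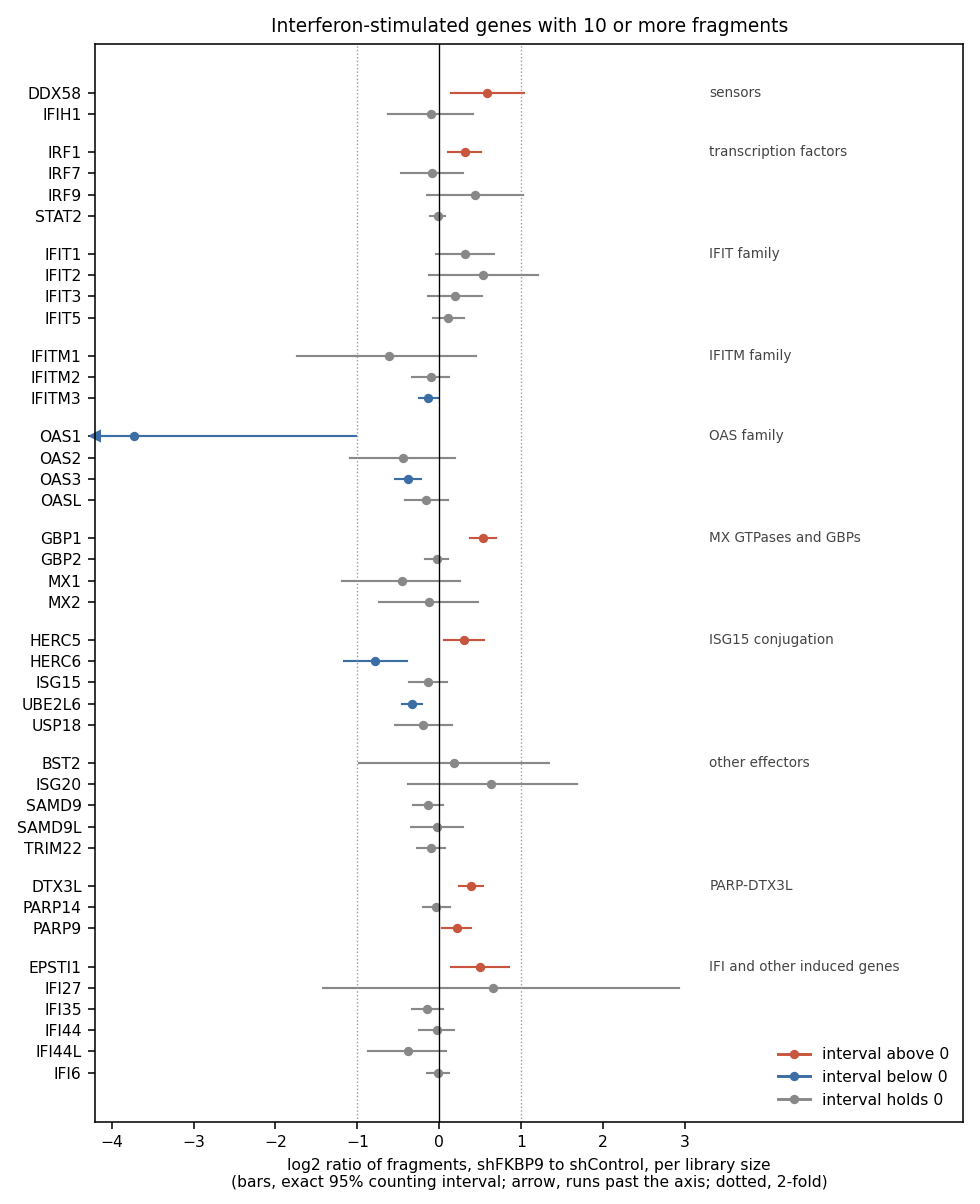
Log2 ratio of fragments per library size, shFKBP9 over shControl, with its exact 95% counting interval, for the 40 interferon-stimulated genes with at least 10 fragments, grouped by role. Nothing is added to the fragments here, so OAS1 lies further left than its ratio with 0.1 FPKM added, and its interval runs past the axis. The 4 OAS genes lie left of 0, the 4 IFIT genes lie right of it, and HERC5 and HERC6 lie on opposite sides.

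PARP9, DTX3L and PARP14 encode ADP-ribosyltransferases and a ubiquitin ligase that work together at DNA breaks and in interferon signaling. PARP9 (chromosome 3, 122527924 to 122564577) was at 3.08 FPKM in shControl and 3.56 FPKM in shFKBP9, a log2 ratio of 0.21 (0.03 to 0.39). DTX3L (122564238 to 122575203), the ligase that pairs with PARP9, was at 6.63 and 8.67 FPKM, a ratio of 0.38 (0.24 to 0.53) from 704 and 873 fragments. These genes share the promoter stretch printed above and overlap by 340 bases, and both were higher in shFKBP9. PARP14 was at 3.42 and 3.33 FPKM, a ratio of -0.04 (-0.20 to 0.13). The 3 genes summed to 1851 and 2020 fragments, a ratio of 0.20 (0.11 to 0.29).

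The other effectors differed by less than the counting error. SAMD9, an antiviral restriction factor, was at 4.37 FPKM in shControl and 3.99 FPKM in shFKBP9, and its relative SAMD9L was at 1.37 and 1.35 FPKM. TRIM22, a ubiquitin ligase that restricts viral transcription, was at 5.49 and 5.12 FPKM, and lies within TRIM5 on the other strand, which had 376 and 326 fragments. BST2, which tethers budding virions to the cell surface, had 14 and 15 fragments, and ISG20, an exonuclease that degrades viral RNA, had 15 and 22. The intervals of all 5 held 0, as did that of the role summed with RSAD2 and CMPK2, -0.09 (-0.20 to 0.02).

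The remaining genes hold the widely used marker IFI6 and its companions. IFI6, a mitochondrial protein that delays apoptosis, was at 56.0 FPKM in shControl and 55.4 FPKM in shFKBP9, a log2 ratio of -0.01 (-0.15 to 0.12), whose sign turns under another scaling. IFI35 was at 13.6 and 12.3 FPKM, a ratio of -0.14 (-0.34 to 0.05). IFI44 had 369 and 342 fragments and its neighbor IFI44L 91 and 66, and both intervals held 0. IFI27, a strong marker of interferon exposure in blood, had 4 and 6 fragments. EPSTI1 (chromosome 13, 42886388 to 42992271), first described as induced in epithelium by stroma, was at 1.36 and 1.92 FPKM, a ratio of 0.47 (0.15 to 0.85) from 121 and 162 fragments. With XAF1, these genes summed to a ratio of -0.02 (-0.11 to 0.07).

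Most receptors, kinases and sensing genes of the pathway upstream were detected, and its ligands were not. Counts of intervals off 0 below are to be read beside 16.7% of protein-coding genes above 0 and 20.3% below. The 15 interferon genes listed had 0 fragments in both libraries. The receptor chain IFNAR1 was at 8.89 FPKM in shControl and 10.6 FPKM in shFKBP9, a log2 ratio of 0.25 (0.13 to 0.38), whereas its partner IFNAR2 had 38 and 23 fragments and an interval that held 0. The span of IFNAR2 is covered by AP000295.1, a coding row of the same strand with 0 fragments, so its level is uncertain. Of the 6 receptor chains, 1 interval lay above 0 (16.7%) and 1 below (16.7%), the latter for IFNLR1 at -0.44 (-0.97 to -0.01). The chains of the interferon gamma receptor, IFNGR1 at -0.20 (-0.44 to 0.04) and IFNGR2 at 0.18 (-0.03 to 0.39), had intervals that held 0. Of the 4 genes of the JAK-STAT list, 1 interval lay above 0 (25%) and 2 below (50%). The kinase JAK1 had a ratio of 0.08 (0.01 to 0.15), TYK2 one of -0.25 (-0.34 to -0.16) and the transcription factor STAT3 one of -0.11 (-0.20 to -0.02). JAK2, which serves the interferon gamma receptor, had 217 and 238 fragments and a ratio of 0.20 (-0.06 to 0.48).

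Of the 12 genes of nucleic acid sensing, 10 had at least 10 fragments, CGAS and ZBP1 were at 0, and 3 of the 10 intervals lay above 0 (30%, beside 16.7% of protein-coding genes) and 4 below (40%, beside 20.3%). IRF3, the factor that starts interferon transcription after sensing, was at 21.1 FPKM in shControl and 14.1 FPKM in shFKBP9. Its ratio of -0.57 (-0.70 to -0.45) from 1447 and 921 fragments was the one ratio of this list outside the middle 95% of its class of depth. IRF3 overlaps BCL2L12 on the other strand by 734 bases. TBK1, the kinase that activates IRF3, had a ratio of 0.26 (0.11 to 0.42), and MAVS, the adaptor of RIG-I and MDA5, had -0.25 (-0.34 to -0.17). TICAM1, the adaptor of TLR3, at 0.23 (0.03 to 0.43) and EIF2AK2, the kinase PKR, at 0.16 (0.04 to 0.28) were the other genes with intervals above 0. IKBKE, a kinase related to TBK1, at -0.20 (-0.36 to -0.04) and ADAR, an RNA-editing enzyme, at -0.18 (-0.24 to -0.12) were the others below. DHX58, a relative of RIG-I, had 112 and 80 fragments and TMEM173, which encodes STING, had 140 and 129, and both intervals held 0. Of the 8 negative regulators, 4 intervals lay above 0 (50%, beside 16.7%) and 1 below (12.5%, beside 20.3%), the latter for SOCS3 at -0.12 (-0.21 to -0.02). The 4 above were USP25 at 0.27 (0.07 to 0.49), PIAS1 at 0.21 (0.02 to 0.42), TRIM24 at 0.18 (0.01 to 0.36) and PTPN11 at 0.16 (0.10 to 0.22). Counting intervals are narrow for abundant genes, so the shares set beside these counts are not matched for depth. Against the classes of depth, 0 receptors, 0 JAK-STAT genes and 0 negative regulators lay outside the middle 95%. No gene of these upstream lists was past 2-fold with at least 1 FPKM.

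**Figure D4:**
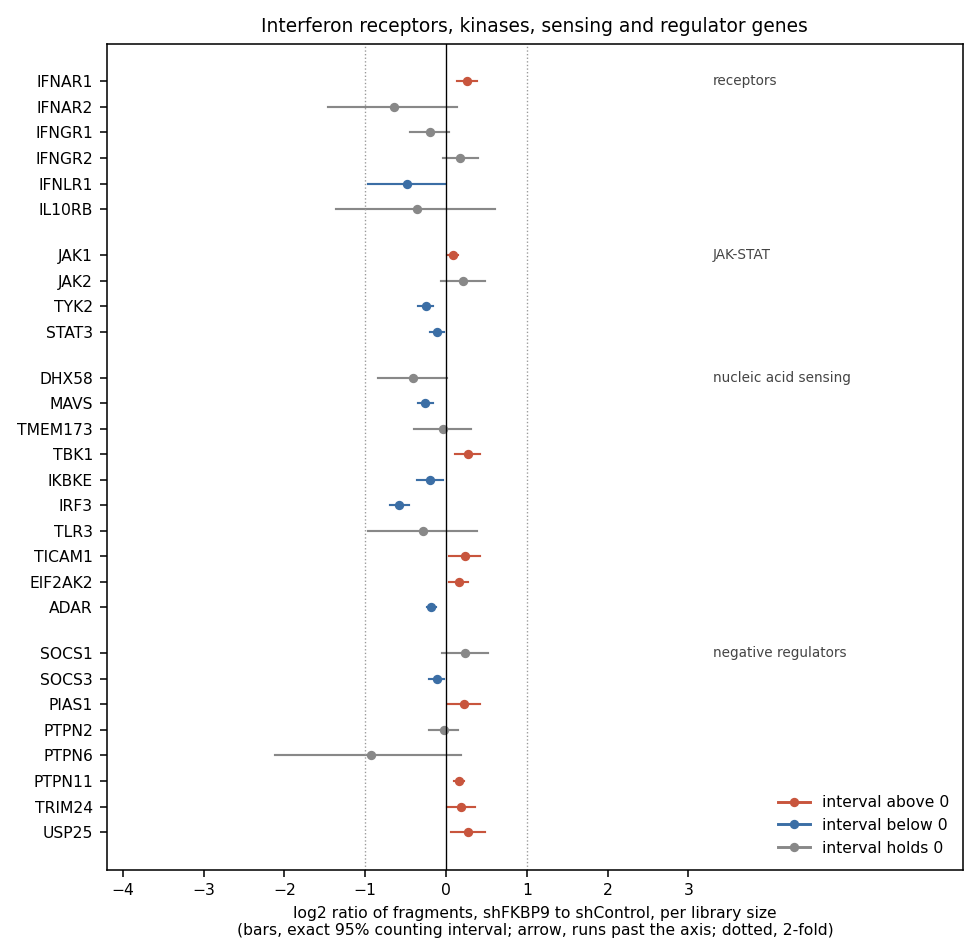
Log2 ratio of shFKBP9 over shControl with its exact 95% counting interval for the receptors, JAK-STAT genes, nucleic acid sensing genes and negative regulators with at least 10 fragments. Nothing is added to the fragments here. IRF3 has an interval below 0 and lies furthest left of the genes whose interval leaves out 0, and IFNAR1 and TBK1 have intervals above 0.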

How the data were processed

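The authors prepared libraries from TRIzol RNA with the NEBNext Ultra kit, removed adapter, poly-N and low-quality reads, and aligned paired reads to hg38. The tools that the authors used, per the submitters' processing notes, were HISAT2 2.0.5, featureCounts 1.5.0-p3 and edgeR. The annotation release and the strand setting are not given in the sources used here, and the kit does not mark strand. The authors deposited FPKM per gene for 1 shControl and 1 shFKBP9 library. No other column of sample values was present.

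FPKM times gene length gave whole fragments for 100% of values (tolerance 0.01), and the library sizes behind the FPKM were 18106502 and 17168342. With 1 library per condition no model across genes could be fitted, so no p-value is given. A gene was past 2-fold when its log2 ratio, with 0.1 FPKM added to both libraries, passed 1 in size and it reached 1 FPKM in either. Counting intervals used at least 10 fragments in both libraries together. The interval code was tested on simulated data. All 43 genes were named, as were FKBP9 and the receptor, JAK-STAT and sensing genes that reached 1 FPKM in a library. In the list of further induced genes, the 3 lowest and 3 highest ratios among genes with 50 or more fragments and 1 FPKM in a library were named. The genes and lists were chosen with earlier results of these data known. Of these lists, 2 genes were left out of every count and value and are not reported here.

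Promoters came from RefSeq (GRCh38.p14) and shared 100-base windows from reference transcripts, whose release may differ from the one used for counting. Alternatives changed the added value, the scaling, the minimum, the fold, the background and the interval. Scripts ran in Python 3.11.15 with scipy 1.17.1, pandas 2.3.3 and numpy 2.4.6, and plots were drawn with matplotlib 3.10.9.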

Additional observations from a re-analysis of the deposited data

How the results depend on the processing

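No interferon-stimulated gene was past 2-fold with at least 1 FPKM under any other added value or scaling tried. With no minimum level, 1 gene (OAS1) was past 2-fold lower in shFKBP9. At 1.5-fold, 1 gene (HERC6) was, beside 250 of 10346 protein-coding genes (2.42%). The intervals above depend on leaving out the spread between cultures, which 1 library per condition cannot give. With an assumed dispersion of 0.01 (a CV of 10%), 2 intervals lay above 0 (GBP1 and DDX58) and 2 below (HERC6 and OAS1), beside 2.54% and 2.69% of protein-coding genes. With 0.04 (a CV of 20%), 0 lay above and 1 below (OAS1), beside 0.606% and 0.644%. The intervals with a dispersion use a normal approximation and are not exact, so their form differs too. That approximation is rough for OAS1, which had 1 fragment in shFKBP9. Against the 500 nearest genes by fragments in place of 3 classes of depth, 3 genes and not 6 lay outside the middle 95%. The median log2 ratio ran from -0.05 to -0.01 over the scalings. Before 0.1 is added, median scaling shifts the log2 ratios by 0.02 and TPM by -0.02, and low genes can move further once it is added. Median scaling turned the ratio of IFI6 from -0.015 to 0.0032. With 1 FPKM added, the ratio of FKBP9 was -3.16 and that of OAS1 was -0.19, whereas OAS1 was at -2.93 with 0.01 added and at -2.25 under TPM. No paired analysis was possible because each condition has 1 library. Genes under 10 fragments, and OAS1 with 15 in all, are at the limit of this depth.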

Other observations

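A list of 50 further interferon-induced genes, beyond the 43 described above, gave 40 with at least 10 fragments. Of these, 6 had an interval above 0 (15.0%) and 13 below (32.5%), beside 16.7% and 20.3% of protein-coding genes, and 0 were past 2-fold with at least 1 FPKM. The lowest ratios among those with 50 or more fragments and 1 FPKM in a library were those of TRIM14, APOL1 and HELZ2. TRIM14, an adaptor of MAVS signaling, had 413 fragments in shControl and 221 in shFKBP9, a log2 ratio of -0.80 (-1.07 to -0.59), and overlaps NANS on the other strand. APOL1, the trypanolytic apolipoprotein, had 101 and 57, a ratio of -0.69 (-1.24 to -0.27). HELZ2, a helicase, had 1211 and 811, a ratio of -0.49 (-0.63 to -0.37).

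By the same rule, the highest ratios were those of TNFSF10, GBP5 and IFI16. TNFSF10, the death ligand TRAIL, had 87 and 146 fragments, a ratio of 0.78 (0.43 to 1.22). GBP5, another guanylate-binding protein in the cluster of GBP1, had 106 and 151, a ratio of 0.53 (0.22 to 0.96). IFI16, a nuclear DNA sensor, had 1963 and 2314, a ratio of 0.31 (0.23 to 0.40). The chemokine CXCL10 had 0 and 3 fragments.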
